A study of Mus musculus with 15 samples.

Results

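The loops described here are all T cell receptor (TCR) alpha CDR3 peptides that end in the 6 residues GNYKYV, the end that the mouse joining segment TRAJ40 leaves on an alpha chain. They were chosen by their last residues alone, without any read count, and numbered 3745 of the 92219 distinct CDR3s in the series. Of these, 234 were listed in Tumour libraries, 957 in MP libraries and 3128 in Naive libraries. The assignment to TRAJ40 rests on the ending and was not checked against a germline sequence. In the RefSeq gene table of GRCm38.p6, Traj40 is a J segment whose neighbours are Traj41 and Traj39.

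The study read TCR alpha chains of CD8+ T cells in 15 libraries from C57BL/6 males, 5 per group. Tumour libraries came from prostate lobes of 27-week-old TRAMP+/- TCRbtg males, whose cells were sorted as CD8b+ CD4neg with no gate on CD44 or CD122. MP (memory-phenotype) libraries came from pooled spleen and lymph nodes of 9-week-old TCRbtg males and held CD8b+ CD4neg CD44hi CD122+ cells. Naive libraries came from the same organs, age and genotype and held CD8b+ CD4neg CD44lo CD122neg cells. All mice carried TCRbtg, a fixed transgenic TCR beta chain, so that the receptors differ in the alpha chain. In TRAMP mice a viral oncogene is driven by a prostate promoter, so that the tumour is a transgenic model. Tumour libraries differ from the others in tissue, age, genotype and sort at once, and these cannot be told apart.

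An alpha chain is made in the thymus by joining 1 of many V segments to 1 of many J segments. Bases are trimmed from both ends and added at the junction. The CDR3 loop spans that junction: its first residues come from the V segment, its last from the J segment, and the residues between them are mixed. The loop sits over the peptide held by MHC and helps to decide what the receptor recognises. Memory-phenotype CD8+ cells carry surface markers of past stimulation in mice that were not deliberately immunised.

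Each library listed CDR3 peptides with their read counts, and no peptide with fewer than 2 reads. Total reads were 627205 to 943699 in Tumour libraries, 574484 to 881988 in MP libraries and 547665 to 702663 in Naive libraries. Distinct CDR3s numbered 934 to 2657 per Tumour library, 2216 to 13950 per MP library and 14914 to 29559 per Naive library. MP 1 and MP 5 stood apart within MP, with 453 and 558 loops of the ending against 59 to 112 in the other three, and Tumour 3 stood apart in the ending's read share. The alpha chains that mark MAIT cells took 0 to 60 reads in Tumour libraries, at most 13 in MP libraries and 41 to 101 in those labelled Naive, and the invariant NKT chain took 0 reads in Tumour libraries, at most 5 in MP and at most 2 in Naive libraries. The number of sorted cells is not given in the labels, so that cell number and depth of sampling were not separated.

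The 8 loops with the highest mean share of reads in each group are shown here because most results turn on them. Their last 6 residues are the shared ending, and what differs is the stretch before it.
Tumour loop 1: AVSSYTGNYKYV
Tumour loop 2: SLVNTGNYKYV
Tumour loop 3: AVSMDTGNYKYV
Tumour loop 4: AVSAQGNYKYV
Tumour loop 5: AASAVGNYKYV
Tumour loop 6: AMTGNYKYV
Tumour loop 7 and MP loop 5: AAEVFNTGNYKYV
Tumour loop 8: AAFDHTGNYKYV
MP loop 1: AASNTGNYKYV
MP loop 2: AASDTGNYKYV
MP loop 3: AASEGTGNYKYV
MP loop 4: AVSPYTGNYKYV
MP loop 6 and Naive loop 3: AYTGNYKYV
MP loop 7: AVPFNTGNYKYV
MP loop 8: AASHTGNYKYV
Naive loop 1: AVSAGTGNYKYV
Naive loop 2: ALSDGTGNYKYV
Naive loop 4: AASASTGNYKYV
Naive loop 5: AASDGTGNYKYV
Naive loop 6: ALVFNTGNYKYV
Naive loop 7: ALGFNTGNYKYV
Naive loop 8: ALAFNTGNYKYV

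**Figure D1:**
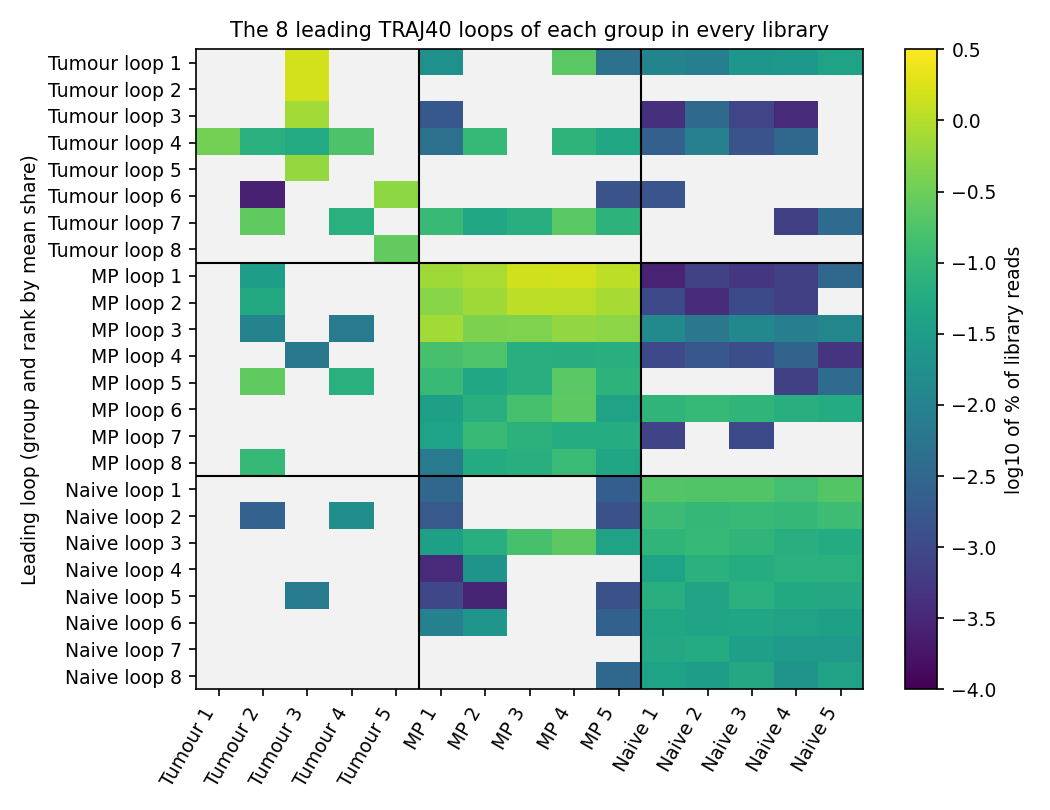
Share of library reads (log10 of the percent, colour) of the 8 leading loops of each group (rows, ranked by mean share) in the 15 libraries (columns). Pale cells are loops not listed. The leading MP loops fill the MP columns, the leading Naive loops fill the Naive columns, and most leading Tumour loops are bright in 1 tumour.

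The ending took a larger share of reads in MP than in Naive libraries. In MP libraries 1 to 5 it took 3.50%, 3.41%, 4.43%, 5.48% and 3.97% of reads, against 2.60%, 2.73%, 2.55%, 2.28% and 2.56% in Naive libraries 1 to 5. Every MP library lay above every Naive library. The mean was 4.16 ± 0.845% in MP and 2.54 ± 0.165% in Naive libraries (SD, n = 5 each), a difference of 1.62 percentage points. The exact two-sided permutation test over all splits of 5 against 5 libraries gave 0.00794, the smallest p it allows, and an adjusted p of 0.0111 over the 56 6-residue endings tested. Of those endings, 41.1% were called higher and 41.1% lower, so that a call was common. By rank of mean share, the ending stood 6th in MP and 14th in Naive libraries. P-values here measure the spread between these libraries. A share of reads can rise through more cells of a clone or more alpha chain RNA per cell, and these cannot be told apart.

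The gain belonged to a few loops. When the 3 leading MP loops, AASNTGNYKYV, AASDTGNYKYV and AASEGTGNYKYV, were taken out of every library, the ending fell to 1.66 ± 0.369% of reads in MP libraries, against 2.53 ± 0.165% in Naive libraries. The difference then ran the other way, at -0.869 percentage points. The loops were picked by their high MP share, so that a fall in MP was built in and no test is drawn from it. When each library instead lost its own most abundant loop of the ending, MP stayed above Naive by 0.675 points (exact permutation test, adjusted p = 0.0111). These 3 loops alone made up 2.54 ± 0.578% of the reads in MP against 0.0122 ± 0.00346% in Naive libraries. Counted as distinct CDR3s, the ending also made up less of MP than of Naive libraries, at 3.45 ± 0.506% and 4.33 ± 0.188%, a difference of -0.882 points (exact permutation test, adjusted p = 0.0170). The removal of the 3 leading MP loops was chosen after the values were seen.

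In Tumour libraries the ending's share was uneven. It was 1.31%, 1.93%, 5.03%, 0.849% and 1.51% of reads in Tumour libraries 1 to 5, a mean of 2.13 ± 1.67%. Tumour 3 lay far above the other four, which were all below every MP and every Naive library. The difference from MP was -2.03 points (exact permutation test, adjusted p = 0.103) and the difference from Naive -0.414 points (adjusted p = 0.813 over 45 endings, exact permutation test), neither past the threshold of 0.05. Of the endings tested, 5.36% were called higher and 32.1% lower against MP, and 2.22% higher and 33.3% lower against Naive libraries. Without Tumour 3 the share fell by 2.76 points relative to MP and by 1.14 points relative to Naive libraries (exact permutation test, adjusted p = 0.0348 and 0.0384). Tumour 3 was singled out after its value was seen. Every other fit against MP that left out 1 library missed the threshold (exact permutation test, adjusted p = 0.140 to 0.194).

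The 3 endings nearest to this one in Naive read share were GNEKIT, SGNKLI and GGRALI, and none of them was called higher in MP libraries. GNEKIT took 0.640% of reads in MP and 3.10% in Naive libraries and was lower in MP (exact permutation test, adjusted p = 0.0111). SGNKLI took 1.51% in MP and 2.72% in Naive (exact permutation test, adjusted p = 0.0567), and GGRALI 1.56% in MP and 2.25% in Naive (exact permutation test, adjusted p = 0.0889). These pairs of values were not tested against the change of the TRAJ40 ending.

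**Figure D2:**
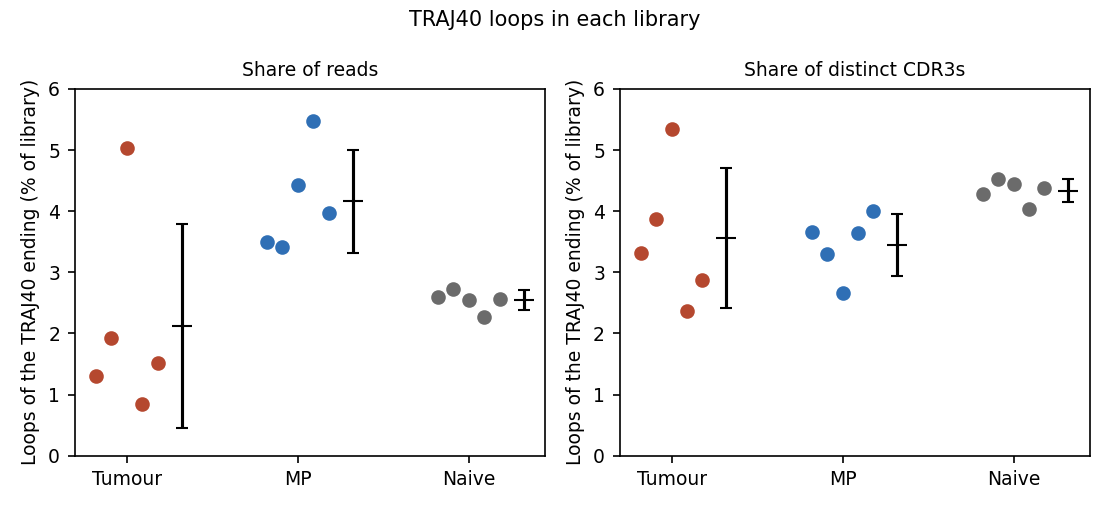
Percent of library reads (left) and of distinct CDR3s (right) that end in the TRAJ40 residues, one point per library, with mean and SD (n = 5) beside each group. By reads the MP points lie above the Naive points, by distinct CDR3s they lie below them, and Tumour 3 lies at 5.03% of reads.

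The residues just before the ending split the loops into families. A threonine stood there in 74.1 ± 18.4% of the ending's reads in Tumour, 94.9 ± 1.37% in MP and 91.5 ± 0.937% in Naive libraries. The 7-residue ending with that threonine rose in MP relative to Naive libraries by 1.63 points (exact permutation test, adjusted p = 0.0109), where 38.7% of all 7-residue endings were called higher. With 1 more residue, the gain among these families was largest for aspartate: DTGNYKYV averaged 0.993 ± 0.261% in MP against 0.150 ± 0.0237% in Naive libraries. NTGNYKYV took 1.74 ± 0.460% in MP and 1.04 ± 0.0666% in Naive libraries, and YTGNYKYV 0.376 ± 0.137% in MP and 0.227 ± 0.0178% in Naive libraries. These 3 endings rose in MP and STGNYKYV fell, at 0.0379 ± 0.0267% in MP and 0.122 ± 0.0170% in Naive libraries (exact permutation test, adjusted p = 0.0105 for each of the 4, over 190 8-residue endings). Among those 190, 32.6% were called higher and 50.5% lower. GTGNYKYV took 0.616 ± 0.148% in MP and 0.585 ± 0.0696% in Naive libraries, which did not differ past the threshold (exact permutation test, adjusted p = 0.725). Single loops held most of the MP share of DTGNYKYV, NTGNYKYV and GTGNYKYV. They were AASDTGNYKYV at a mean of 0.853% of MP reads, AASNTGNYKYV at 1.16% and AASEGTGNYKYV at 0.536%. In Naive libraries these loops averaged 0.000626%, 0.00111% and 0.0105%. The other loops of each family were not tested apart.

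Loops with glycine before the threonine were scarce in tumours. GTGNYKYV took 0.0541 ± 0.0655% of Tumour reads, which was lower than in MP (exact permutation test, adjusted p = 0.0187) and than in Naive libraries (exact permutation test, adjusted p = 0.0152), with no overlap in either pair. STGNYKYV, at 0.00426 ± 0.00693% of Tumour reads, was also lower than in Naive libraries (exact permutation test, adjusted p = 0.0152). Among all 8-residue endings, 39.1% were called lower in Tumour over MP and 47.8% in Tumour over Naive. DTGNYKYV and NTGNYKYV were lower in Tumour than in MP libraries (exact permutation test, adjusted p = 0.0332 and 0.0461), but with overlap between the groups. YTGNYKYV took 0.348 ± 0.698% of Tumour reads, with 1.59% in Tumour 3. Without Tumour 3, singled out after its value was seen, the difference of YTGNYKYV from Naive libraries turned to -0.190 points (exact permutation test, adjusted p = 0.0261). Loops with no threonine before the ending took 25.9 ± 18.4% of the ending's reads in Tumour, 5.12 ± 1.37% in MP and 8.50 ± 0.937% in Naive libraries.

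**Figure D3:**
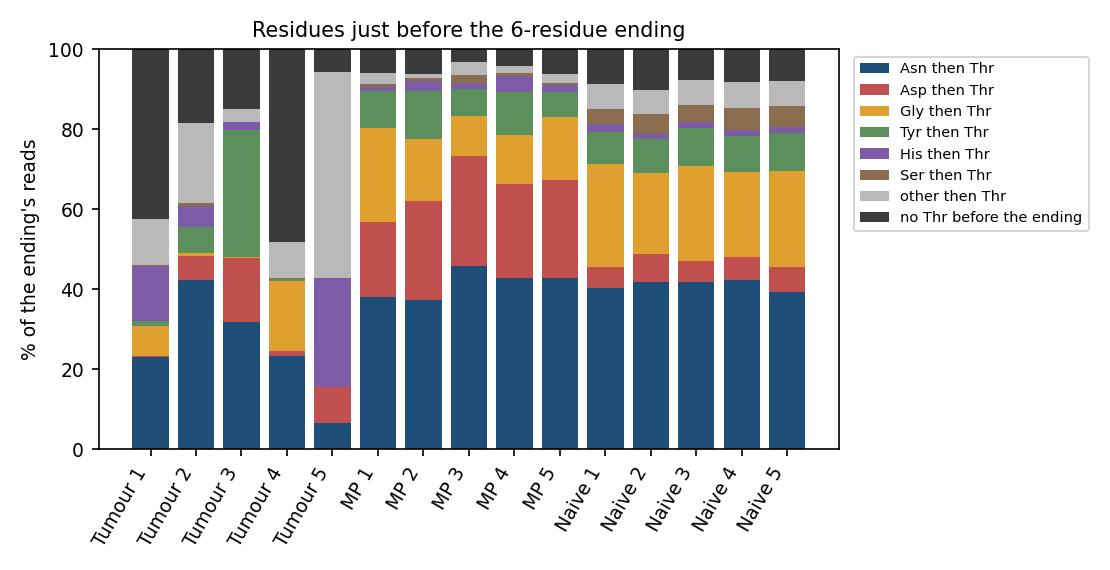
Share of the ending's reads (percent) by the residues just before the 6-residue ending, for each of the 15 libraries. The 5 MP bars and the 5 Naive bars are alike within their groups, aspartate before threonine is wider in MP, and the Tumour bars differ from one another.

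The start of the loop, which comes from the V segment, was also not shared out alike. Loops beginning AA held 28.3 ± 14.2% of the ending's reads in Tumour, 75.1 ± 4.98% in MP and 30.3 ± 3.02% in Naive libraries. The 3 leading MP loops all begin AA and by themselves held 60.9 ± 4.48% of the ending's MP reads. Loops beginning AL held 6.66 ± 4.43% in Tumour, 6.96 ± 2.11% in MP and 27.6 ± 2.37% in Naive libraries. AV starts held 33.2 ± 27.0% in Tumour, 10.2 ± 3.71% in MP and 20.3 ± 1.28% in Naive libraries. Over the reads of all CDR3s, AA starts held 45.1 ± 7.94% in Tumour, 24.1 ± 3.16% in MP and 29.5 ± 3.01% in Naive libraries, and AL starts 10.9 ± 0.851% in Tumour, 39.8 ± 2.09% in MP and 30.2 ± 1.68% in Naive libraries. MP was thus above Naive in AA starts within the ending and below it over all reads, and the other way round for AL starts. These shares of starts were not tested. The V segment itself was not read from the peptide, since several V segments share these starts.

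Reads of the ending were concentrated on few loops in MP and Tumour and spread over many in Naive libraries. The most abundant loop held 25.7 ± 8.89% of the ending's reads in Tumour, 27.4 ± 4.36% in MP and 6.17 to 7.72% in Naive libraries. It took 2 to 10 loops to reach 50% of those reads in Tumour libraries, 2 or 3 in MP and 44 to 51 in those labelled Naive. The effective number of loops, from the Shannon entropy of their reads, was 5.71 to 34.8 per Tumour library, 10.4 to 30.6 per MP library and 246 to 313 per Naive library. MP 1 and MP 5, which listed the most loops within MP, had the highest effective numbers in MP, 30.6 and 27.1, against 15.8, 10.4 and 15.7 in MP 2, MP 3 and MP 4. MP 3 reached 50% with 2 loops and the other MP libraries with 3.

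The same loops led in every MP library. Of 957 loops, 16 were listed in all 5 MP libraries and held 74.7 ± 3.62% of the ending's MP reads. In Naive libraries 189 of 3128 were listed in all 5 and held 64.9 ± 0.322% of the reads. In number, the loops in all 5 libraries were 1.67% of those listed in MP and 6.04% in Naive. That is close to the 1.90% and 6.00% over all CDR3s of those groups. By reads, all CDR3s listed in all 5 libraries held 65.8 ± 1.39% in MP and 78.7 ± 0.548% in Naive libraries. The ending thus lay above that share in MP and below it in Naive libraries. No loop was listed in all 5 Tumour libraries, where 1.14% of all CDR3s were and held 35.3 ± 9.24% of reads. One was listed in 4 tumours, and 207 of 234 (88.5%) in a single tumour, as were 85.9% of all Tumour CDR3s. None was listed in all 15 libraries, and 3 reached 12: AASEGTGNYKYV, AVNTGNYKYV and AVSAQGNYKYV. By the Morisita-Horn index of the ending's reads, where 1 is identical, pairs of MP libraries averaged 0.941, pairs of Naive libraries 0.946 and pairs of Tumour libraries 0.110. Tumour and MP libraries averaged 0.0547 (SD 0.0656), Tumour and Naive 0.0155 (SD 0.0106), and MP and Naive 0.0246 (SD 0.00695). Pairs of Tumour 2 with MP libraries gave 0.155 to 0.201, and pairs of the other tumours with MP at most 0.0730. Over all CDR3s the index was likewise high between MP libraries (0.916) and between Naive libraries (0.973), and was 0.220 between Tumour libraries. The likeness within MP and within Naive was thus not particular to the ending. Between groups the order of the means differed, with the ending's Tumour and MP mean raised by Tumour 2. Over all CDR3s MP and Naive averaged 0.0578, Tumour and MP 0.00713, and Tumour and Naive 0.00236. In all, 453 loops were listed in both MP and Naive libraries, 47.3% of the MP loops and 14.5% of the Naive loops, beside 42.5% and 14.6% over all CDR3s.

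The leading loop in MP, AASNTGNYKYV, was rare in Naive libraries. It took 0.733%, 0.862%, 1.47%, 1.58% and 1.14% of reads in MP libraries 1 to 5, against 0.000285%, 0.000730%, 0.000522%, 0.000724% and 0.00330% in Naive libraries 1 to 5. All 5 MP libraries were high, and the Naive values rest on 34 reads in all, against 39004 reads in MP. The mean share was 1039 times higher in MP, and the log2 fold change was 9.99 ± 0.945 (SE; edgeR's quasi-likelihood test with Benjamini-Hochberg adjustment over 5954 CDR3s, adjusted p = 0.000381).

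AASDTGNYKYV, which differs from it by an aspartate at position 4 (D4N counted from AASDTGNYKYV to AASNTGNYKYV, positions from 1 at the loop's first listed residue), behaved alike. Its shares were 0.509%, 0.730%, 1.13%, 1.08% and 0.812% in MP libraries 1 to 5, and it was listed in 4 Naive libraries at 0.000365 to 0.00104%. The MP libraries were all high, and MP over Naive came to 10.37 ± 1.07 on the log2 scale (SE; edgeR adjusted p = 0.000547). AASHTGNYKYV, with histidine at that position, took 0.00737%, 0.0599%, 0.0692%, 0.117% and 0.0453% of MP reads and was listed in no Naive library. It was at least 119-fold higher in MP, against a floor of 3 reads per library (edgeR adjusted p = 0.000827).

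These 3 belong to 14 listed loops that differ at position 4 alone, from AAS to TGNYKYV. The 14 held 0.0888 ± 0.146% of reads in Tumour, 2.07 ± 0.654% in MP and 0.00276 ± 0.00111% in Naive libraries. Within the ending that was 5.13 ± 7.74% of reads in Tumour, 49.0 ± 8.70% in MP and 0.109 ± 0.0434% in Naive libraries. Asparagine, aspartate and histidine took nearly all of the MP reads of these loops. Alanine and arginine at position 4, AASATGNYKYV and AASRTGNYKYV, were listed in Tumour 1 and Tumour 2 only, at 0.0419% and 0.0345% for alanine and 0.0614% and 0.0954% for arginine. These 2 were named after their values were seen.

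AASEGTGNYKYV, the third MP loop, was listed in all 5 Naive libraries. It took 0.749%, 0.404%, 0.431%, 0.578% and 0.517% of reads in MP libraries 1 to 5, against 0.0138%, 0.00621%, 0.0124%, 0.00851% and 0.0116% in Naive libraries 1 to 5. Both groups were even and far apart, at 5.67 ± 0.507 on the log2 scale (SE; edgeR adjusted p = 0.000271). AASDGTGNYKYV, which has aspartate for glutamate at position 4 (E4D), went the other way. It was listed in 3 MP libraries at 0.000293 to 0.00132% and took 0.0653%, 0.0433%, 0.0705%, 0.0539% and 0.0528% in Naive libraries 1 to 5. Its log2 fold change was -6.76 ± 1.29 (SE; edgeR adjusted p = 0.00145).

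Across all 3632 loops of the ending listed in MP or Naive libraries, 235 reached 10 reads in 3 or more libraries and were tested. Of these, 21 were higher and 109 lower in MP (edgeR, adjusted p under 0.05), while 12.6% of all CDR3s tested were called higher and 48.1% lower. The 235 include loops that passed the filter through 1 group alone: 8 of the 21 were not listed in Naive libraries and 85 of the 109 were not listed in MP libraries. The median log2 fold change was -3.03 over the 235 and -3.35 over all CDR3s tested. The 21 loops together held 3.15 ± 0.653% of reads in MP against 0.0208 ± 0.00567% in Naive libraries. The 109 together held 0.00992 ± 0.0112% in MP against 1.06 ± 0.0718% in Naive libraries. Without MP 1 and MP 5, 13 were higher, and without Naive 1, 72 were lower.

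Besides those already named, 5 of the leading MP loops or their relatives rose. AVSPYTGNYKYV averaged 0.108 ± 0.0556% in MP and 0.00141 ± 0.000844% in Naive libraries, higher by 6.24 on the log2 scale (edgeR adjusted p = 0.000662). AAEVFNTGNYKYV averaged 0.106 ± 0.0693% in MP and was listed in 2 Naive libraries (log2 fold change 6.85, edgeR adjusted p = 0.00687). AVPFNTGNYKYV averaged 0.0713 ± 0.0271% in MP and was also listed in 2 Naive libraries (log2 fold change 7.47, edgeR adjusted p = 0.00171). ALSDTGNYKYV rose less, with 0.0382 ± 0.0141% in MP and 0.00353 ± 0.00170% in Naive libraries (log2 fold change 3.43, edgeR adjusted p = 0.00141). AAEFFNTGNYKYV also rose (log2 fold change 7.21, edgeR adjusted p = 0.0307), but the call was lost in 4 of the fits that left out 1 Naive library, with edgeR adjusted p up to 0.0701. AYTGNYKYV led in both groups, at 0.106 ± 0.0862% in MP and 0.0812 ± 0.0186% in Naive libraries, with no difference past the threshold (edgeR adjusted p = 0.628).

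The leading Naive loop, AVSAGTGNYKYV, was the most abundant loop of the ending in all 5 Naive libraries. It was listed in MP 1 and MP 5 only, at 0.00306% and 0.00219%, and took 0.201%, 0.189%, 0.191%, 0.140% and 0.194% in Naive libraries 1 to 5. Its mean share was 174 times lower in MP (log2 fold change -7.40, edgeR adjusted p = 0.00378). ALSDGTGNYKYV followed, again listed in MP 1 and MP 5 only, with 0.000626 ± 0.000875% in MP and 0.111 ± 0.0121% in Naive libraries (log2 fold change -7.41, edgeR adjusted p = 0.00256). ALGFNTGNYKYV was in no MP library and averaged 0.0394 ± 0.0144% in Naive libraries, at least 89.9-fold lower in MP (edgeR adjusted p = 0.000662). AADNTGNYKYV, AYNTGNYKYV and AASEGNTGNYKYV were likewise in all 5 Naive and no MP libraries, at least 74.9-, 60.9- and 58.0-fold lower in MP (edgeR adjusted p = 0.000662 for each). ALAFNTGNYKYV (edgeR adjusted p = 0.0189) and ALSEGTGNYKYV (edgeR adjusted p = 0.0354) also fell, the second of these losing its call when any 1 Naive library or MP 1 was left out. AASASTGNYKYV averaged 0.00438% in MP and 0.0636% in Naive libraries (edgeR adjusted p = 0.103), and ALVFNTGNYKYV 0.00683% in MP and 0.0421% in Naive libraries (edgeR adjusted p = 0.152), neither past the threshold.

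**Figure D4:**
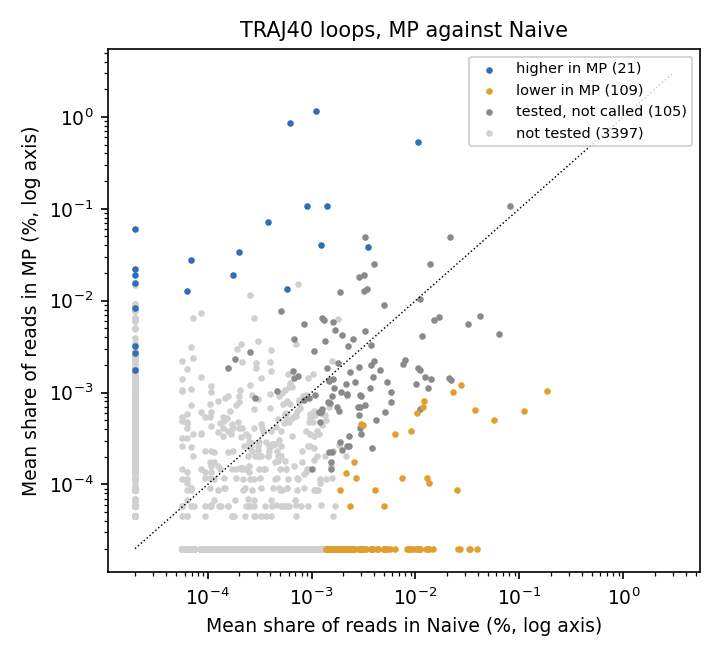
Mean share of reads in MP (vertical, percent, log axis) against Naive libraries (horizontal, percent, log axis) for the 3632 loops listed in either group, coloured by edgeR call. Loops not listed in a group lie on that axis's edge. The 21 loops called higher in MP and the 109 called lower sit away from the dotted line of equal share.

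Some loops 1 residue apart had opposite calls. Among the 130 called loops, 163 pairs differed by 1 substitution, of which 34 had 1 loop higher and 1 lower in MP, 18 had both higher and 111 both lower. Opposite pairs were 20.9% of these, beside 14.96% of the 6083 such pairs over all called CDR3s, so most pairs were called in the same direction. AASNTGNYKYV, the leading MP loop, stood against AADNTGNYKYV (S3D), which averaged 0.0328 ± 0.00712% in Naive libraries and was in no MP library. AASEGTGNYKYV stood against ALSEGTGNYKYV (A2L), which averaged 0.00121% in MP and 0.0275% in Naive libraries. In loops of the form AAE, 1 residue, FNTGNYKYV, those with valine, phenylalanine, isoleucine and histidine at position 4 were called higher in MP, and those with alanine, glutamate and arginine lower (V4A, V4E and V4R from AAEVFNTGNYKYV). The lower ones were AAEAFNTGNYKYV, AAEEFNTGNYKYV and AAERFNTGNYKYV, at 0.0117%, 0.00425% and 0.00831% of Naive reads. These pairs were picked after their values were seen, and the count of pairs was not tested. A loop 1 residue from a much larger one can also be a misread copy of it.

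Among the tumours, most leading Tumour loops were high in Tumour 3 or in Tumour 5 alone. Tumour 1 and Tumour 4 had the same most abundant loop of the ending, AVSAQGNYKYV. AVSSYTGNYKYV took 1.58% of the reads of Tumour 3 and was in no other tumour, and it was listed in 3 MP libraries and in all 5 Naive libraries, at a mean of 0.0488% in MP and 0.0213% in Naive. SLVNTGNYKYV took 1.57% of Tumour 3, AASAVGNYKYV 0.615% of Tumour 3 and AAFDHTGNYKYV 0.267% of Tumour 5, and none of these 3 was in any other library. AVSMDTGNYKYV took 0.759% of Tumour 3, AMTGNYKYV took 0.536% of Tumour 5, and both were at most 0.00365% in any MP or Naive library. With a single high tumour, a difference between groups cannot be told from that of the 1 animal, and the fitted differences of AVSSYTGNYKYV missed the threshold (edgeR adjusted p = 0.454 against MP and 0.222 against Naive). Loops listed in Tumour libraries alone numbered 113 of 234 (48.3%), and 59.1% of all Tumour CDR3s were so.

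AVSAQGNYKYV was the loop most shared between tumours. It took 0.369%, 0.0714%, 0.0558% and 0.175% in Tumour libraries 1 to 4 and was not listed in Tumour 5. In MP libraries it was listed in 4, at 0.00454%, 0.105%, 0.0853% and 0.0497% in MP 1, 2, 4 and 5, and in Naive libraries also in 4, at 0.00139 to 0.00913%. It was the most abundant loop of the ending in Tumour 1 and Tumour 4. Its log2 fold change over Naive was 5.37 ± 1.90 (SE; edgeR adjusted p = 0.0211), which missed the threshold when Naive 1, 3 or 4 was left out (adjusted p up to 0.0541). Against MP it was 1.46 ± 1.98 (SE; edgeR adjusted p = 0.515).

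Tumour against Naive, 191 of 3259 listed loops were tested, 2 were higher and 167 lower (edgeR), beside 3.38% higher and 86.7% lower of all CDR3s tested. The 2 were AVSAQGNYKYV and the 7-residue loop GGNYKYV. GGNYKYV was listed in Tumour 1, 2 and 4 at 0.0123%, 0.0769% and 0.103% and in 2 Naive libraries at 0.000871% and 0.00251% (log2 fold change 5.79, edgeR adjusted p = 0.0427). Its call was lost in 6 of the fits that left out 1 library. Of the 167 lower loops, 151 were in no Tumour library and so passed the filter through Naive alone, the group where they are high. The median log2 fold change was -7.20 over the 191 and -7.42 over all CDR3s. The leading Naive loop AVSAGTGNYKYV was in no tumour, at least 469-fold lower (edgeR adjusted p = 1.27e-05). AYTGNYKYV, AASASTGNYKYV and ALVFNTGNYKYV were in no tumour either, at least 208-, 163- and 108-fold lower (edgeR adjusted p = 1.27e-05 for each). ALSDGTGNYKYV (log2 fold change -4.82, edgeR adjusted p = 0.0323) and AASDGTGNYKYV (log2 fold change -5.38, edgeR adjusted p = 0.0243) fell as well, and the first lost its call when Tumour 2 or any 1 Naive library was left out.

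Tumour against MP, 52 of 1114 listed loops were tested, 0 were higher and 29 lower (edgeR), beside 7.68% higher and 66.0% lower of all CDR3s tested. Of the 29 lower loops, 25 were in no Tumour library and so passed the filter through MP alone. The count higher was also 0 by DESeq2 and 0 at an unadjusted p under 0.05. The count lower fell most without MP 1, MP 4 or MP 5, when fewer loops were tested. It was 12 of 33 tested loops without MP 1, 19 of 39 without MP 4 and 14 of 34 without MP 5. Without both MP 1 and MP 5 it was 5 of 22. AASNTGNYKYV was listed in Tumour 2 only, at 0.0338%, and was lower than in MP (log2 fold change -7.41, edgeR adjusted p = 0.0257). AASEGTGNYKYV was listed in Tumour 2 and Tumour 4, at 0.0101% and 0.00709% (log2 fold change -7.27, edgeR adjusted p = 0.0183). AYTGNYKYV and AVPFNTGNYKYV were in no tumour, at least 272- and 183-fold lower than in MP (edgeR adjusted p = 0.0103 for both). AASDTGNYKYV (edgeR adjusted p = 0.0491) and AVSPYTGNYKYV (edgeR adjusted p = 0.0298) also fell, the first losing its call in most of the fits that left out 1 library and the second without MP 1 or MP 2. AAEVFNTGNYKYV did not differ past the threshold, at 0.253% in Tumour 2, 0.0728% in Tumour 4 and 0.106 ± 0.0693% in MP libraries (edgeR adjusted p = 0.779).

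Among the tumours, loops called higher in MP over Naive took their largest share in Tumour 2. Loops among the 21 called higher in MP over Naive took 4.37%, 26.7%, 0.124%, 11.4% and 0% of the ending's reads in Tumour libraries 1 to 5, with 8 of the 21 listed in Tumour 2. Loops among the 109 called lower took 0%, 0.319%, 0.143%, 5.69% and 15.2% in the same libraries. The share in Tumour 5 was that of 1 loop and the share in Tumour 4 that of 4 loops. In MP libraries the 21 took 75.6 ± 4.69% of the ending's reads and in Naive libraries 0.819 ± 0.218%. Over the whole repertoire, the 753 CDR3s called higher in MP took 4.85 to 12.6% of Tumour reads, and Tumour 2 was again the highest. The 2863 called lower took 1.64 to 4.10% of Tumour reads, with Tumour 2 the highest there too. Loops of the ending listed in any MP library, called or not, took 62.4 ± 12.7% of the ending's reads in Tumour libraries, from 48.2 to 82.5%. In number they were 32.9% of the Tumour loops, beside 25.7% over all Tumour CDR3s. The matching share of all Tumour reads was not worked out.

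Loops of the ending were shorter in MP than in Naive libraries. Listed loops had 7 to 22 residues with a median of 12, 66 had 15 or more and 51 held a cysteine. Weighted by reads, loops averaged 11.34 ± 0.101 residues in MP against 11.66 ± 0.0425 residues in Naive libraries, a difference of -0.326 residues (exact permutation test, adjusted p = 0.0175 over 42 endings). Loops of 11 residues held 57.3 ± 7.60% of the ending's reads in MP and 12.7 ± 0.886% in Naive libraries, and loops of 12 residues 26.0 ± 8.85% in MP and 47.2 ± 2.84% in Naive libraries. The same shift was common: 47.6% of endings were called shorter in MP, with a median difference of -0.292 residues. Without the 3 leading MP loops the difference was -0.146 residues. These loops were picked by their high MP share, so that no test is drawn from their removal. Tumour loops averaged 10.97 ± 0.545 residues, shorter than in Naive libraries (exact permutation test, adjusted p = 0.0286), where 11.1% of 36 endings were called shorter, and the call was lost without Tumour 1 or any 1 Naive library.

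**Figure D5:**
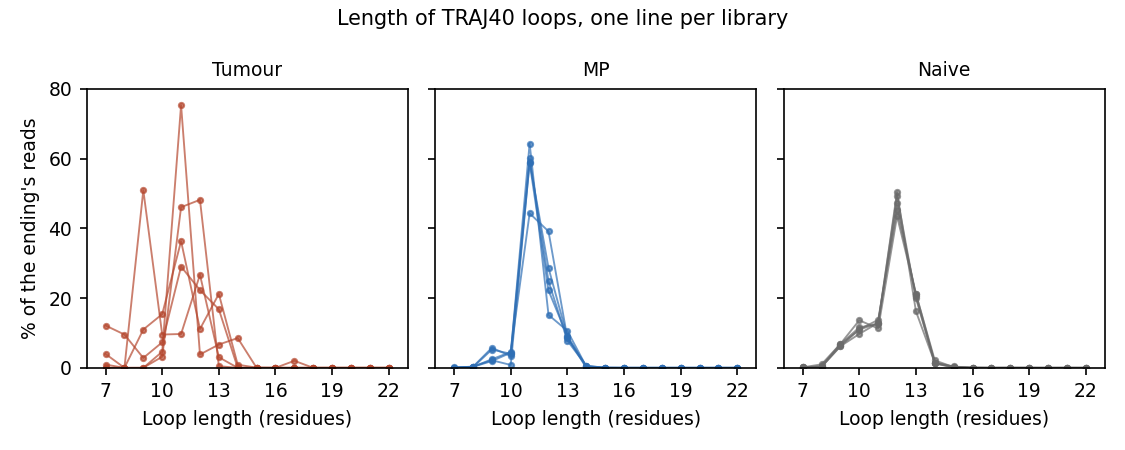
Percent of the ending's reads by loop length in residues, one line per library, in Tumour, MP and Naive panels. The MP lines peak at 11 residues, the Naive lines at 12, and the Tumour lines peak at different lengths.

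Net charge, counting lysine and arginine against aspartate and glutamate, was lower in MP. The read-weighted mean was 0.544 ± 0.0380 in MP and 0.715 ± 0.0110 in Naive libraries, a difference of -0.170 (exact permutation test, adjusted p = 0.0196), while the median over endings was 0.0271 and 23.8% were called lower. The ending itself holds 1 lysine. A loop of charge 0 with no other lysine or arginine thus has 1 acidic residue, as AASDTGNYKYV and AASEGTGNYKYV do. Without the 3 leading MP loops, picked by their high MP share, the difference was -0.0311, and again no test is drawn from it. The mean charge was 0.820 ± 0.151 in Tumour libraries, higher than in MP (exact permutation test, adjusted p = 0.0408), with 16.7% of endings called higher, and the call was lost when any 1 library was left out.

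Loops 1 substitution from a loop at least 100 times as abundant in the same library made up 27.8 to 66.0% of the ending's listed loops per Tumour library, 7.71 to 31.3% per MP library and 2.07 to 3.99% per Naive library. Folding them into the larger loop left the difference in read share between MP and Naive libraries at 1.62 points. A substitution before the ending keeps the ending, so folding could hardly move this share, and no test is drawn from it. Their part in the counts of distinct and shared loops was not tested.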

How the data were processed

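Alpha chain CDR3s of mouse CD8+ T cells were read in 15 libraries. Per the labels' protocols, Trizol RNA was amplified by iRepertoire with its multiplex method, arm-PCR. For the aligner, CDR3 caller, error filter and molecular identifiers, the record is: not given in the sources used here. For each library the authors deposited raw read counts by CDR3 peptide. PCR reads are not independent molecules, so that bounds cover counting error only.

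Loops were taken by their last 6 residues. The loops and lists were chosen with earlier results of these data known. Shares are percent of a library's reads. Endings were compared by exact two-sided permutation tests over 252 splits, for every ending of 6, 7 or 8 residues with a mean share of at least 0.1% in 1 group, adjusted by Benjamini-Hochberg within each length. Length and charge were tested over endings with at least 10 reads in every library. Loops were tested with edgeR 4.0.16 (quasi-likelihood, robust, total reads as library size; R 4.3.3, limma 3.58.1) on every CDR3 that reached 10 reads in 3 or more libraries, each pair of groups alone. Where a group lists no copy of a loop, its fold was bounded with 3 reads per library. Both tests were tested on simulated data.

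Loops named are the 8 with the highest mean share in each group, the 10 called loops with the highest share in each direction of MP over Naive (6 for the Tumour comparisons), and the most abundant loop of each library; loops of 15 or more residues and 2 others that the rule names are not printed. Alternatives were TMM, DESeq2 1.42.0, other filters, thinning, other weights, folded misreads and leaving out libraries. The series' text gives 5 mice for Naive and MP cells, but the labels do not say that equal numbers share a mouse, and deviations of same-numbered libraries correlated at 0.00438 to 0.0456, so that libraries were treated as unpaired. Python 3.11.15, numpy 2.4.6, scipy 1.17.1, pandas 2.3.3 and matplotlib 3.10.9 were used.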

Additional observations from a re-analysis of the deposited data

Results flagged for a closer look

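Of 49 groups of 4 or 5 libraries compared, 4 held a library far from the others by Dixon's ratio, and chance gives about 1 in 20. The ending took 5.03% of reads in Tumour 3, next to 1.93% in the nearest tumour. AVSMDTGNYKYV took 0.00365% of reads in Naive 2, next to 0.000871%. AASNTGNYKYV took 0.00330% in Naive 5, next to 0.000730%. AVSAGTGNYKYV took 0.140% in Naive 4, next to 0.189%. Loops listed in fewer than 4 libraries of a group were not compared in this way.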

How the results depend on the processing

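A pair of alternatives turned the sign of the MP over Naive difference in read share. Counting distinct CDR3s gave -0.882 points (adjusted p = 0.0170, exact permutation test). Leaving out the 3 leading MP loops, chosen by their MP share after seeing the data, gave -0.869. Leaving out each library's own most abundant loop kept the sign, at 0.675 points (adjusted p = 0.0111, exact permutation test). YTGNYKYV in Tumour over Naive turned to -0.190 without Tumour 3, and ran from there to 0.208 over the fits that left out 1 library. Blocked by library number, the exact sign-flip test on 5 differences cannot go below 0.0625, and the MP over Naive share (1.62 points) had an adjusted p of 0.0761. The same block gave 10 lower loops in Tumour over MP and 0 higher in Tumour over Naive, and the numbers are not known to pair the libraries: in MP and Naive, 3 of 5 libraries correlated best with their own number.

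Counts of called loops moved with the filter. MP over Naive gave 34 lower with at least 50 reads, and 66 higher and 654 lower with no filter. Tumour over MP gave 12 lower with at least 50 reads, and 9 higher and 157 lower with no filter. Tumour over Naive gave 45 lower with at least 50 reads and 972 with no filter, and 1 higher with TMM. These filters test 70 to 1214, 26 to 244 and 53 to 1064 loops. Without MP 1 and MP 5, chosen after seeing the data, 13 were higher in MP over Naive and 5 lower in Tumour over MP. Leaving out 1 library gave 15 to 21 higher and 72 to 123 lower in MP over Naive, 0 higher and 12 to 34 lower in Tumour over MP, and 0 to 3 higher and 121 to 172 lower in Tumour over Naive. Leaving out 1 library gave differences in read share of 1.29 to 1.81, -2.76 to -1.70 and -1.14 to -0.0949 points in these comparisons.

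Weighted by distinct CDR3, net charge gave -0.0496 in MP over Naive and 0.0661 in Tumour over MP, and length -0.441 in Tumour over Naive, all with an adjusted p above 0.05. Without the 3 leading MP loops the length difference was -0.146 and the charge difference -0.0311. Leaving out 1 library gave a charge difference in Tumour over MP of 0.225 to 0.315 and a length difference in Tumour over Naive of -0.852 to -0.510. Where no cause is named, the cause was not tested. A loop that is not listed had fewer than 2 reads, which limits any statement of absence to about 0.0005% of a library.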
